A study of Mus musculus with 8 samples.

Results

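A set of 10 mouse miRNAs known from nerve tissue was followed in the culture medium of muscle cells: mmu-miR-132-3p, mmu-miR-212-3p, mmu-miR-124-3p, mmu-miR-9-5p, mmu-miR-9-3p, mmu-miR-128-3p, mmu-miR-218-5p, mmu-miR-219a-5p, mmu-miR-338-3p and mmu-miR-137-3p, written without the species prefix from here on. They were chosen by name, 10 of the 1881 mouse miRNAs on the array, as miRNAs associated with neurons, glia or neuronal activity. All 10 were on the array, 4 were detected on at least 1 array and 6 on none. The series is about miRNAs secreted by muscle cells with mutant or wild-type human SOD1, and these miRNAs were followed to ask about neural content in such medium. Which cells released a detected member was not tested, so detection of a member does not by itself show neural content.

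A miRNA is a short RNA that guides a silencing complex to messenger RNAs, mainly through its seed, bases 2 to 8 from its 5′ end. Cells also release miRNAs into the medium, in vesicles or bound to proteins. miR-132 and miR-212 come from 1 locus that neuronal activity switches on through the factor CREB. miR-124, miR-9, miR-137 and miR-128 are enriched in neurons or their precursors, miR-218 is abundant in motor neurons, and miR-219 and miR-338 act in the maturation of oligodendrocytes, the myelinating glia of the central nervous system.

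Culture medium of transwell co-cultures was measured on 8 single-colour Agilent miRNA arrays, 1 per sample. The cells were primary myocytes from the hind-limb muscle of newborn mice aged 1 to 3 days, labelled male, that carried a human SOD1 transgene. One strain, B6SJL(Tg-SOD1)2Gur/J, overexpresses wild-type SOD1 (WT), and the other, B6SJL(Tg-SOD1*G93A)1Gur/J, overexpresses the G93A mutant and is a model of amyotrophic lateral sclerosis (ALS). All groups thus carried human SOD1, and medium of cells without the transgene was not analysed here. Each group is named by the cells of the lower chamber and then those of the insert. There were 2 samples of WT/WT, 3 of G93A/WT and 3 of G93A/G93A. A membrane with 0.4 µm pores separated the chambers, and no drug or other treatment was given. Medium was collected at 2 days in vitro. At that time a medium with 10% foetal bovine serum was exchanged for one with 2% horse serum, and which of them was collected is not stated in the labels. Serum miRNAs of cattle or horse whose sequence equals the mouse one would be read by the same probes, and cell-free medium was not analysed here. Samples are described as biological replicates from different mice, with no litter or culture day named.

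Between 450 and 563 miRNAs were detected per array, most on G93A/WT 2, which also gave the highest signal sum (202908 units, against 115122 to 167513 on the other arrays). The single slide had 2 rows. All G93A/WT arrays shared row 1 with WT/WT 1, all G93A/G93A arrays shared row 2 with WT/WT 2, and no row held both G93A/WT and G93A/G93A. Of 7 miRNAs of skeletal and cardiac muscle, miR-1a-3p, miR-133a-3p, miR-133b-3p and miR-206-3p were detected on all 8 arrays, miR-499-5p on 1 (G93A/WT 2), and miR-208a-3p and miR-208b-3p on none.

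The mature sequences of the detected miRNAs are given first, because the values of miR-132-3p and miR-212-3p have to be read as those of a closely related pair. Sequences and positions are RefSeq's for build GRCm38.p6, which held 9 of the 10 miRNAs. Capitals mark the seed.
miR-132-3p: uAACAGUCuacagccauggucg
miR-212-3p: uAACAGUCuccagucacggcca
miR-128-3p: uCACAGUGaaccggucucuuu
miR-338-3p: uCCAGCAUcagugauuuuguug
miR-132-3p and miR-212-3p share their seed, their first 9 bases and 17 of 22 positions. Counted from the 5′ end of miR-132-3p, the changes to miR-212-3p are A10C, C14U, U17C, U20C and G22A. Both lie on the plus strand of chromosome 11, miR-212-3p at chr11:75173443-75173464 and miR-132-3p at chr11:75173723-75173744, with 258 bases between them. No other miRNA of the array with a RefSeq sequence has this seed, and no RefSeq gene of another kind spans either hairpin. miR-128-3p is made from 2 loci, Mir128-1 within the span of R3hdm1 (chr1:128202404-128202424, plus strand) and Mir128-2 within that of Arpp21 (chr9:112118644-112118664, minus strand). miR-338-3p lies within the span of Aatk, a kinase gene of the nervous system, at chr11:120014781-120014802 on the minus strand.

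The undetected set is the second group of sequences, shown because the absence of a signal refers to exactly these RNAs.
miR-9-5p: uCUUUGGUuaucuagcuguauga
miR-9-3p: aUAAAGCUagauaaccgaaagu
miR-218-5p: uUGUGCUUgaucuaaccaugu
miR-219a-5p: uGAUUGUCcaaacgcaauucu
miR-137-3p: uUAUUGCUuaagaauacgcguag
The miR-9 arms can come from 3 loci, each within a long non-coding RNA gene (Gm3764, C130071C03Rik and Mir9-3hg). miR-218-5p comes from 2 loci within the axon guidance genes Slit2 and Slit3, miR-219a-5p from 2 loci (one within the span of Cercam), and miR-137-3p from 1 locus on chromosome 3. Among array miRNAs with a RefSeq sequence (1608 of 1881), the only other one that shares a seed with one of these 5 is miR-7002-3p. It has the seed of miR-218-5p and was detected on 0 arrays.

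Of the 10 miRNAs, 6 gave no signal above the detection limit in any medium. miR-124-3p, the neuronal miRNA of the adult brain, both arms of miR-9, which acts in neural precursors, miR-137-3p, which restrains neuronal maturation, miR-218-5p of motor neurons and miR-219a-5p of oligodendrocytes were undetected on all 8 arrays, whatever the genotype of the cells. Undetected on every array were thus 60% of the 10, and 68.8% of all 1881 mouse miRNAs, so that non-detection was no more frequent among them than on the whole array. Detected on at least 1 array were 4 of the 10 (40%), beside 31.2% of all mouse miRNAs. An undetected miRNA is listed at the fixed value 0.1, so no level can be given for these 6, and a level below the detection limit cannot be told from absence. The same limit holds for the number of cells: in medium, fewer releasing cells and less RNA released per cell cannot be told apart.

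Most other strands and relatives of the 10 miRNAs were undetected too. Of 17 partner arms, paralogues and overlapping miRNAs, 15 (88.2%, beside the 68.8% of all mouse miRNAs) were detected on no array, among them miR-132-5p and miR-212-5p, miR-124-5p, miR-128-1-5p and miR-128-2-5p, and the arms of miR-219b and miR-219c. miR-338-5p was detected on G93A/G93A 1 alone, at a scaled signal of 1.55. The other exception was miR-3065-3p, made from the strand opposite to miR-338, which was detected on all 8 arrays. Its partner arm miR-3065-5p was detected on none. miR-3065-5p overlaps miR-338-3p by 21 bases on the other strand (chr11:120014780-120014801, plus strand) and matches its reverse complement over these 21 bases, as its sequence shows when set beside miR-338-3p above.
miR-3065-5p: uCAACAAAaucacugaugcugg
Scaled signals of miR-3065-3p (array signal after scaling, linear units) were 30.6 and 32.3 in WT/WT, 45.5, 37.9 and 32.2 in G93A/WT and 39.4, 38.3 and 52.0 in G93A/G93A. Every G93A/G93A value lay above both WT/WT values, and the difference of 0.45 ± 0.19 on the log2 scale did not pass the test (SE, limma adjusted p = 0.193). Over the 8 arrays miR-3065-3p and miR-338-3p had r = −0.08 (Pearson, log2 scaled signals, a description only).

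**Figure D1:**
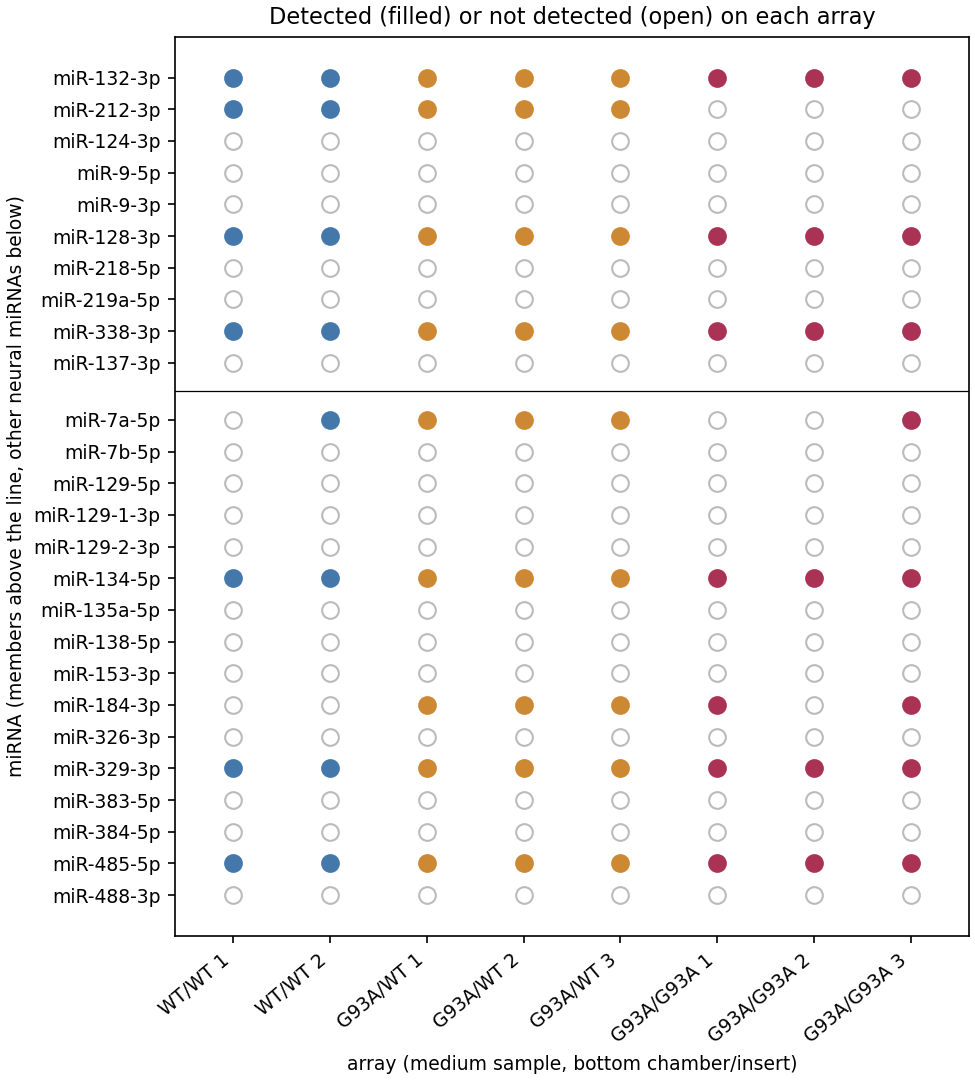
Detection of the 10 miRNAs (above the line) and of 16 other neural or activity-linked miRNAs (below) on each of the 8 arrays, filled where the array files flag the miRNA as detected; blue, WT/WT; orange, G93A/WT; red, G93A/G93A. Of the 10, 6 were open on every array, and miR-212-3p was filled on all WT/WT and G93A/WT arrays and open on all G93A/G93A arrays.

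The 4 detected miRNAs were tested with all 538 mouse miRNAs detected on at least 2 arrays. Each array was scaled so that its 75th percentile over the 423 miRNAs detected on all 8 arrays was equal, signals under 1.52 scaled units (the floor) were set to it, and groups were compared on the log2 scale with limma. Adjusted p-values are limma's with Benjamini-Hochberg adjustment over the 538, and a call is an adjusted p under 0.05. The 3 comparisons share samples and are not independent of each other. In G93A/G93A medium against WT/WT 1 of the 4 was called, miR-212-3p, lower, where 4.83% of all tested miRNAs were called lower (3.72% higher, 8.55% in either direction). Against G93A/WT medium miR-212-3p alone was again called lower, where 5.2% of all miRNAs were called lower, 5.39% higher and 10.6% in either direction. Between G93A/WT and WT/WT 0 of 4 were called in limma and 0 had an unadjusted p under 0.05, where 3.9% of all miRNAs were called (3.16% higher, 0.743% lower). A count of 1 among 4 is too small to set against these shares. miR-212-3p was undetected on every G93A/G93A array, so its calls rest on the floor value set there.

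miR-128-3p, a brain-enriched miRNA, was the one member measured well above its error. Its scaled signals were 95.5 and 103 in WT/WT, 88.2, 111 and 111 in G93A/WT and 90.3, 117 and 106 in G93A/G93A. The 3 groups overlapped fully, with log2 means of 6.64 ± 0.08 (SD, n = 2), 6.68 ± 0.19 (SD, n = 3) and 6.70 ± 0.19 (SD, n = 3). G93A/G93A minus WT/WT was 0.06 ± 0.16 (SE, limma adjusted p = 0.862), with a 95% interval from −0.31 to 0.44. G93A/WT minus WT/WT was 0.05 (interval −0.33 to 0.42), and G93A/G93A minus G93A/WT was 0.02 (interval −0.32 to 0.36). With slide row as a block, which compares each mutant group with the WT/WT array of its own row, the 3 differences were 0.01 ± 0.22, 0.10 ± 0.22 and −0.10 ± 0.31 (SE) in the same order. Without scaling the last 2 were 0.82 ± 0.35 and −0.59 ± 0.31 (SE, limma adjusted p = 0.079 and 0.126), where the medians of all tested miRNAs were 0.79 and −0.68.

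miR-338-3p, known from oligodendrocytes and the Aatk locus, was dim on every array. It stood at 6.22 and 5.19 scaled units in WT/WT, 5.85, 6.13 and 6.08 in G93A/WT, and 3.44, 5.53 and 5.86 in G93A/G93A. G93A/G93A 1 gave the lowest value, and the other 2 arrays of that group lay within the range of the rest. G93A/G93A minus WT/WT was −0.24 ± 0.23 (SE, limma adjusted p = 0.582, interval −0.79 to 0.31), and without G93A/G93A 1 it was 0.00. Between G93A/G93A and G93A/WT it was −0.32 ± 0.21 (SE, limma adjusted p = 0.321), and between G93A/WT and WT/WT 0.08 ± 0.23. With slide row as a block these 3 became −0.11, −0.06 and −0.05. Without any scaling the difference between G93A/G93A and G93A/WT was −0.93 (limma adjusted p = 0.0449), where the median of all tested miRNAs also lay at −0.68.

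miR-132-3p, the activity-linked miRNA that shapes dendrites and spines, was present at a low level in all media. Its scaled signals were 5.03 and 5.75 in WT/WT, 4.08, 8.33 and 5.75 in G93A/WT and 3.81, 4.84 and 6.05 in G93A/G93A. The highest value, on G93A/WT 2, came from the brightest array, and the groups overlapped. G93A/G93A minus WT/WT was −0.16 ± 0.32 (SE, limma adjusted p = 0.82), G93A/WT minus WT/WT 0.11 ± 0.32 (limma adjusted p = 0.843) and G93A/G93A minus G93A/WT −0.27 ± 0.28 (limma adjusted p = 0.531). The interval of the first ran from −0.91 to 0.59, wider than that of miR-128-3p. With slide row as a block the 3 values were −0.26, 0.21 and −0.46.

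**Figure D2:**
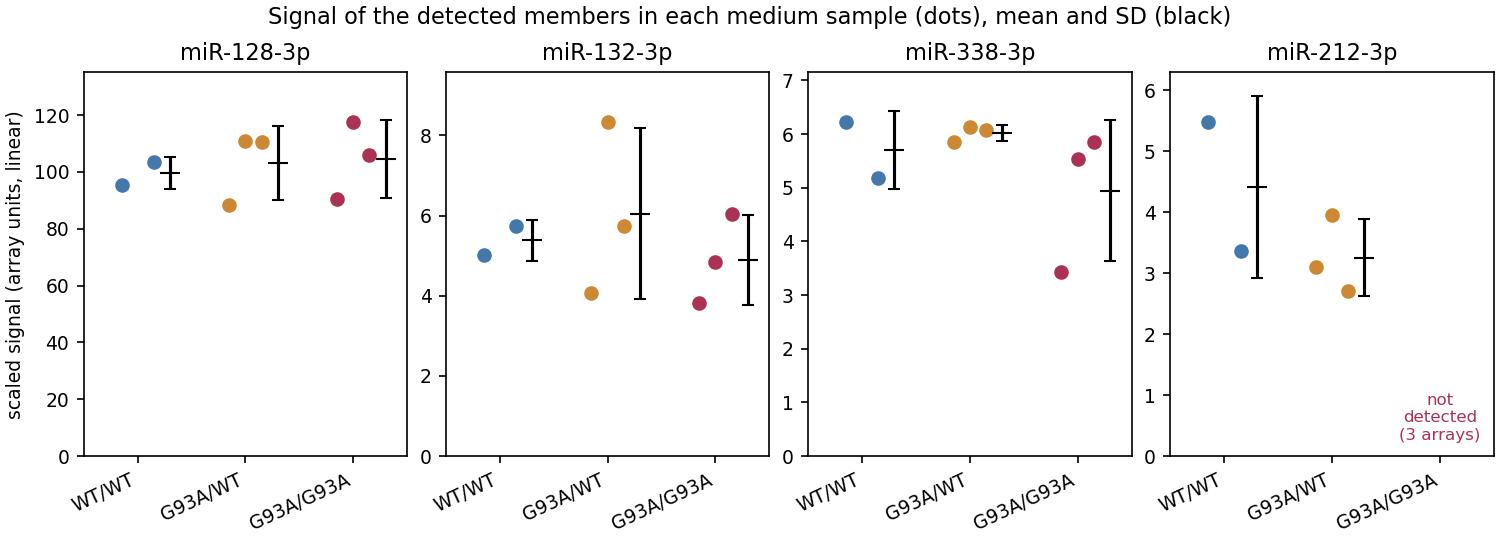
Scaled signal (linear array units, each panel with its own axis from 0) of the 4 detected miRNAs in each medium sample, with each group's mean and SD (WT/WT n = 2, G93A/WT and G93A/G93A n = 3). The groups overlap for miR-128-3p, miR-132-3p and miR-338-3p, and miR-212-3p has no detected value in G93A/G93A.

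miR-212-3p, the sister of miR-132-3p from the same locus, was the one member whose detection separated the media. Its scaled signals were 5.47 and 3.36 in WT/WT and 3.10, 3.95 and 2.72 in G93A/WT, and none of the 3 G93A/G93A arrays detected it. Fitted with undetected arrays at the floor, G93A/G93A minus WT/WT was −1.50 ± 0.23 (SE, limma adjusted p = 0.0154) and G93A/G93A minus G93A/WT −1.09 ± 0.21 (SE, limma adjusted p = 0.0171). The spread of miR-212-3p within G93A/G93A is then 0. Its SE and p-values in all 3 comparisons thus take in no variation from that group. It also passed the filter for testing through WT/WT and G93A/WT arrays alone. Both differences from G93A/G93A thus rest on the filter and the floor, and their p-values are no independent support for a lower level of miR-212-3p. The lowest signal of any miRNA detected on each G93A/G93A array (the mean of their log2 values) lay 2.60-fold below its WT/WT mean and 1.95-fold below its G93A/WT mean. That limit is set by other miRNAs and is no bound for miR-212-3p. The difference between G93A/WT and WT/WT was −0.42 ± 0.23 (SE, limma adjusted p = 0.298). Signal sums were 126477, 119252 and 135152 units on the G93A/G93A arrays, 115122 and 139644 on the WT/WT arrays and 143713 to 202908 on the G93A/WT arrays. The G93A/G93A arrays thus lay between the WT/WT arrays and below every G93A/WT array, and the part of array brightness in the detection of miR-212-3p was not tested.

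These miR-212-3p signals lay at the edge of detection, which fixes how its size can be read. In these files every miRNA flagged as detected had a signal above 3 times its own error. Undetected ones are listed at 0.1, so whether each of them lay below that limit could not be checked. The signal of miR-212-3p was 3.91 and 3.05 times its error on the WT/WT arrays and 3.21, 5.51 and 3.36 times on the G93A/WT arrays. The lowest of these, on WT/WT 2, was from the one array of slide row 2 that detected it. miR-132-3p ran from 3.34 to 7.75 times its error and miR-338-3p from 3.04 to 7.16, whereas miR-128-3p ran from 10.5 to 13.1. Over all miRNAs the median of 3901 detected values was 10.1, and 325 of them lay under 4; of the 5 values of miR-212-3p 4 lay under 4.

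**Figure D3:**
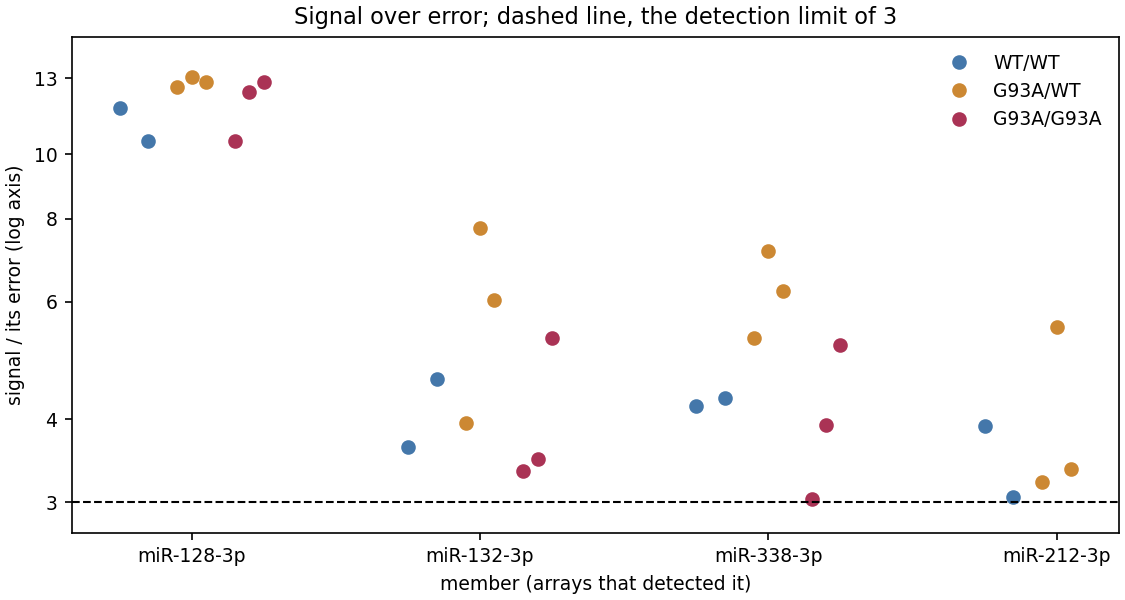
Signal divided by its own error (log axis) for the 4 detected miRNAs on each array that detected them, coloured by medium, with the detection limit of 3 as a dashed line. miR-128-3p sits between 10.5 and 13.1, while 4 of the 5 values of miR-212-3p lie between 3 and 4.

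Where miR-212-3p was detected its error was at least 0.974 signal units, so 3 times that error, 2.92 units, was taken as its own detection limit. Errors listed for arrays that did not detect miR-212-3p were not used, so its limit on those arrays may differ. On the 3 G93A/G93A arrays that limit corresponds to 3.38, 3.83 and 2.84 scaled units, and the scaled signals of 3 of the 5 arrays that detected it (3.36, 3.10 and 2.72) lay below the highest of them. Set at this own limit, the undetected arrays gave a ratio of 1.29 for WT/WT over G93A/G93A and of 0.967 for G93A/WT over G93A/G93A, so no fold can be stated for the latter. In the fit the differences became −0.37 ± 0.26 (SE, limma adjusted p = 0.405) and 0.05 ± 0.23 (SE, limma adjusted p = 0.884). Both calls of miR-212-3p thus depended on the value given to undetected arrays. With slide row as a block the difference from WT/WT was −1.15 (limma adjusted p = 0.0801) and that from G93A/WT −0.38 (limma adjusted p = 0.681). Within row 2, where WT/WT 2 is the only array with a value above the floor, it was −1.15 (limma adjusted p = 0.00866), from a fit in which the spread of miR-212-3p is 0 and its error comes from the other miRNAs. Without WT/WT 1 it was −1.15 as well (limma adjusted p = 0.0801), and the call against G93A/WT was lost without G93A/WT 2, G93A/G93A 1 or G93A/G93A 2 (limma adjusted p = 0.0636, 0.0526 and 0.0691).

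**Figure D4:**
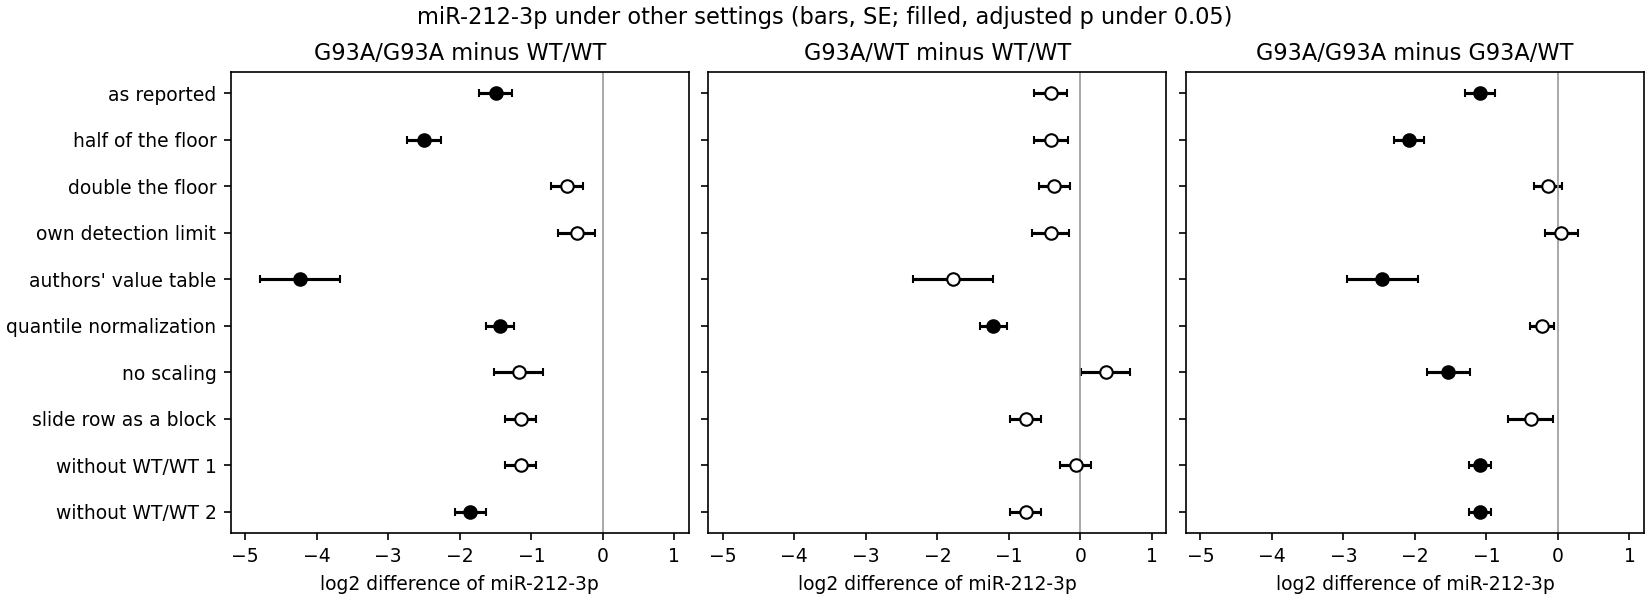
Log2 difference of miR-212-3p in the 3 comparisons under 10 settings, with SE bars; filled points have a limma adjusted p under 0.05, and every difference from G93A/G93A rests on values set or listed for arrays that did not detect it. The difference between G93A/G93A and G93A/WT lies at −1.09 with undetected arrays at the common floor and at 0.05 with them at the miRNA's own detection limit.

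The number of the 10 miRNAs detected per array followed from miR-212-3p alone: 4 on every WT/WT and G93A/WT array and 3 on every G93A/G93A array. An exact permutation test over arrays (2-sided p as 2 times the smaller tail) gave p = 0.2 for G93A/G93A against WT/WT and p = 0.1 against G93A/WT. These are the smallest values that this form of the test can give for 3 against 2 and 3 against 3 arrays. Detection on all WT/WT and G93A/WT arrays and on no G93A/G93A array was shown by 7 of the 538 tested miRNAs (1.3%). Besides miR-212-3p they were miR-17-3p, miR-181a-5p and the epithelial miRNAs miR-200b-3p, miR-200c-3p, miR-203-3p and miR-429-3p. These 6 were singled out after their values were seen. The own-limit fold of WT/WT over G93A/G93A ran from 1.29 for miR-212-3p, the lowest of the 7, to 3.53 for miR-203-3p. The summed scaled signal of 7 epithelial markers was 138 to 166 in WT/WT, 61.2 to 85.0 in G93A/WT and 0 to 5.36 in G93A/G93A, with miR-200a-3p and miR-141-3p undetected on every array. Group means of miR-212-3p fell in the same order with undetected arrays at the floor, but its WT/WT and G93A/WT values overlapped. At its own limit G93A/WT did not lie above G93A/G93A (ratio 0.967). The part of the epithelial sum in the result for miR-212-3p was not tested. The summed signals of muscle markers overlapped between G93A/G93A (4090 to 5060) and WT/WT (4520 to 5190), and so did those of 3 erythroid and serum miRNAs (922 to 1380 against 1010 to 1090, with miR-144-3p undetected). Those of 2 endothelial miRNAs did not overlap (93.1 to 101 against 109 to 119, with miR-126a-5p undetected), nor did those of 4 leukocyte miRNAs (131 to 159 against 99.3 to 107). The share of all miRNAs whose ranges did not overlap was not counted, here or for single miRNAs. The endothelial sum was miR-126a-3p alone, which was not called (limma adjusted p = 0.346). In G93A/WT the erythroid and serum (1260 to 1420) and leukocyte sums (133 to 146) lay above WT/WT. Most of the erythroid and serum sum was miR-451a, higher by 0.45 on the log2 scale (limma adjusted p = 0.212). miR-486a-5p of the same list went the other way, by −0.32 (limma adjusted p = 0.176), and neither was called. The muscle (4340 to 5260) and endothelial sums (87.4 to 113) of G93A/WT overlapped with those of WT/WT. The leukocyte sum came from miR-223-3p alone, while miR-142a-3p, miR-142a-5p and miR-150-5p were undetected on every array. miR-223-3p was called higher in G93A/G93A against WT/WT (limma adjusted p = 0.0433). It was not called in G93A/WT against WT/WT (limma adjusted p = 0.0793) or between G93A/G93A and G93A/WT (limma adjusted p = 0.609).

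Although miR-132-3p and miR-212-3p come from 1 locus, only the latter fell below detection in G93A/G93A. On the arrays that detected both, the log2 signal of miR-132-3p minus that of miR-212-3p was −0.12 and 0.77 in WT/WT and 0.39, 1.08 and 1.08 in G93A/WT. This difference varied as much within WT/WT as between the groups, and in G93A/G93A it has no value. Whether the sisters changed differently was not tested.

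**Figure D5:**
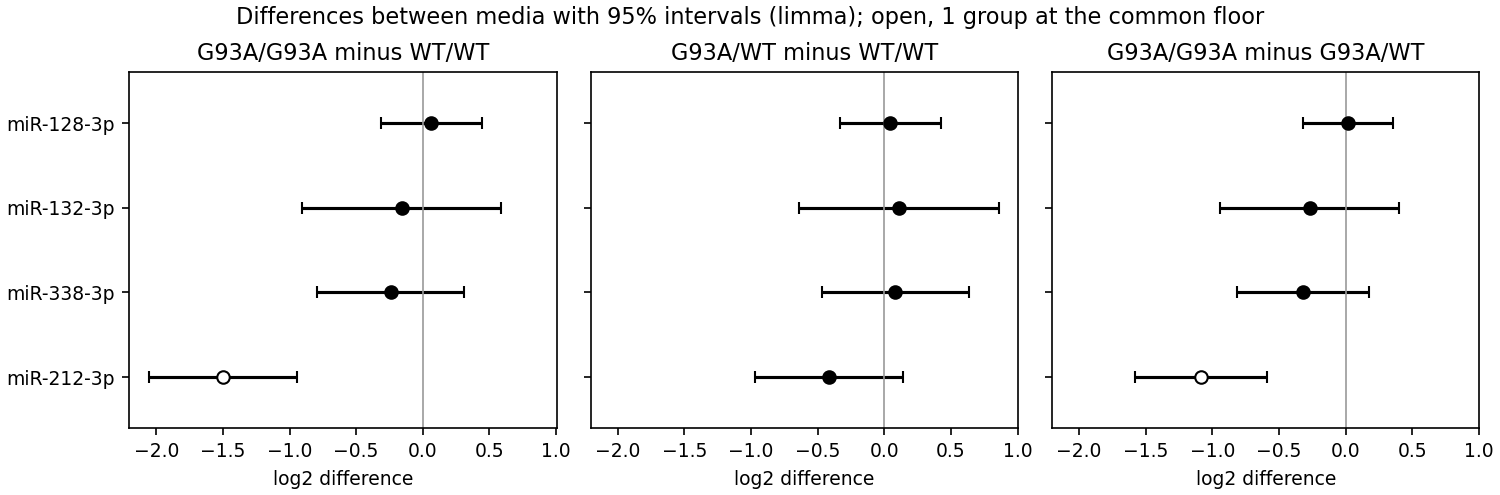
Log2 differences between media for the 4 detected miRNAs with limma's 95% intervals. Open points mark comparisons in which all G93A/G93A arrays of miR-212-3p are at the floor. For miR-212-3p the G93A/G93A group adds no variation to any interval. The intervals of miR-128-3p, miR-132-3p and miR-338-3p include 0 in each comparison.

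The authors' deposited table of processed values gave miR-212-3p another profile. It lists 4.84 and 4.60 in WT/WT, 3.16, 0.772 and 1.06 in G93A/WT and 0.221, 0.283 and 0.251 in G93A/G93A. On G93A/WT 2 the table thus has its lowest G93A/WT value where the array file has the highest signal of all (6.66 unscaled). On G93A/WT 2 and G93A/WT 3, 48 detected miRNAs each stood more than 2-fold below the array's median ratio of table to array signal, against 0 to 6 on the other 6 arrays. The array files flag miR-212-3p as undetected on the 3 G93A/G93A arrays, so the table's values there are not above background. Differences from these values are drawn in the plot of miR-212-3p under several settings and enter the counts of called members below. They are not read as a change in level. In the table's values miR-212-3p differed by −1.78 ± 0.56 between G93A/WT and WT/WT (SE, limma adjusted p = 0.158). With quantile normalization of the array values the latter was −1.22 (limma adjusted p = 0.0213), and without scaling 0.35 (limma adjusted p = 0.35), so its direction in G93A/WT medium depended on the scaling. miR-128-3p, miR-132-3p and miR-338-3p were not called in any comparison in the table.

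Of 16 other neural or activity-linked miRNAs, 11 (68.8%, the same share as over all mouse miRNAs) were detected on no array, among them miR-129-5p, miR-138-5p and miR-153-3p, and 5 were tested. None of the 5 was called in any of the 3 limma comparisons; at an unadjusted p under 0.05 there were 2, 2 and 0 in G93A/G93A against WT/WT, G93A/WT against WT/WT and G93A/G93A against G93A/WT. Over all 538 tested miRNAs the counts at that unadjusted p were 143, 132 and 173. The 3 detected on all arrays, miR-134-5p, miR-329-3p and miR-485-5p, belong to the imprinted Dlk1-Dio3 cluster, which muscle precursors also express. miR-134-5p, which restrains dendritic spines, stood at 104 and 106 scaled units in WT/WT, 126, 117 and 106 in G93A/WT and 127, 127 and 134 in G93A/G93A. All G93A/G93A values lay above the WT/WT values, by 0.29 ± 0.11 (SE, limma adjusted p = 0.139). miR-329-3p ran the other way, at 299.7 and 297 in WT/WT, 208, 256 and 234 in G93A/WT and 200.0, 216 and 236 in G93A/G93A. Both mutant-containing media lay below WT/WT on every array, with differences of −0.46 ± 0.13 (SE, limma adjusted p = 0.0749) and −0.36 ± 0.13 (SE, limma adjusted p = 0.139). miR-485-5p, at 10.9 and 11.1, then 10.2, 15.2 and 14.2, then 10.2, 14.4 and 12.9, overlapped between the groups.

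The other 2 were at the detection limit. miR-184-3p was undetected on both WT/WT arrays, detected on all G93A/WT arrays (3.16, 5.55 and 2.79 scaled units) and on 2 of 3 G93A/G93A arrays (4.36 and 3.87). Its difference between G93A/WT and WT/WT depends on the floor and was 1.27 ± 0.49 (SE, limma adjusted p = 0.173). miR-7a-5p was detected on 1 of 2 WT/WT, 3 of 3 G93A/WT and 1 of 3 G93A/G93A arrays, at 3.34 to 3.91 scaled units.

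The 3 miRNAs detected on all arrays were positively correlated over the 8 arrays, and miR-212-3p could not be included. Pearson's r of the log2 scaled signals was 0.67 between miR-132-3p and miR-128-3p, 0.57 between miR-132-3p and miR-338-3p and 0.42 between miR-128-3p and miR-338-3p. Among the 422 other miRNAs detected on all arrays, those most like miR-132-3p were miR-382-5p (0.978), miR-93-5p (0.959) and miR-18a-5p (0.929). miR-128-3p was most like miR-485-5p (0.929), miR-19b-3p (0.843) and miR-92a-3p (0.723), and miR-338-3p was most like miR-30a-5p (0.979), miR-500-3p (0.96) and miR-345-5p (0.918). These are the highest of many correlations over 8 arrays that share scale factors and are given as a description.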

How the data were processed

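RNA from 600 µl of medium was labelled with Cy3 (150 ng of small RNA) and hybridised to 1 array per sample, per the labels' protocols. Per the file headers, each deposited array file lists for every miRNA the total gene signal, an intensity on a linear scale, with its error and whether it was detected. Undetected miRNAs are listed at 0.1. How the scanner software treated background is not stated in the sources used here. The authors' value table, also an intensity on a linear scale, holds 492 mouse miRNAs and 10 controls; its normalization is unknown.

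Signals were scaled on the 75th percentile over the 423 miRNAs detected on all arrays (factors 0.593 to 1.44), floored at 1.52 and taken to log2. Of 1881 miRNAs, 538 detected on at least 2 arrays were tested in R 4.3.3 by limma 3.58.1 (a group-means model over all 8 arrays with moderated variances, prior degrees of freedom 1.96). The procedure was also run on simulated log2 values without a floor. That run does not cover a group lying wholly at the floor, as miR-212-3p does in G93A/G93A. Precision is limited by having 2 or 3 arrays in a group. The p-values set differences against the spread between these samples, moderated over the tested miRNAs. For miR-212-3p that spread takes in nothing from G93A/G93A, where its values are the floor. The rule for names was all 10 members, their partner arms and seed relatives, 16 other neural miRNAs, and for each member detected on all arrays the 3 most correlated miRNAs; miRNAs with the detection pattern of miR-212-3p were named if 5 or fewer, and 6 others were named although there were more. Alternatives covered scaling, floor, filter, slide row, replicate number, left-out arrays and the authors' table. Members and lists were chosen with earlier results of these data known, and the limit specific to miR-212-3p was chosen after seeing the data. 1 listed serum miRNA, miR-486b-5p, was not matched on the array.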

Additional observations from a re-analysis of the deposited data

How the results depend on the processing

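The count of called members between G93A/G93A and WT/WT, 1 (miR-212-3p), stayed at 1 in 16 of 25 alternatives and was 0 with double the floor, with each array's own 75th percentile, without scaling, with only the 2 groups compared, with slide row as a block, with miR-212-3p at its own detection limit and with the filter on detection on all 8 arrays, which removes miR-212-3p by its construction. Between G93A/G93A and G93A/WT it stayed at 1 in 14 of 24 alternatives, was 0 with double the floor, quantile normalization, slide row as a block, the own limit and that filter, and was 2 without scaling. Between G93A/WT and WT/WT it was 0 in all but quantile normalization, where it was 1. Leaving out 1 array gave 0 to 1, 0 to 1 and 0 in the 3 comparisons. The authors' table, counted among those at 1 in the first 2 comparisons, holds values for miR-212-3p on arrays that did not detect it. Detection as a signal above 3 times its error changed no flag, so that alternative, also counted, repeats the main fit. No single slide row held G93A/WT and G93A/G93A, so that comparison has no within-row value. Where a cause is not named, the cause was not tested.

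Deviations of same-numbered samples from their group means had r above 0.1 in 2 of 7 pairs (from −0.35 to 0.21). Within groups of 2 or 3 arrays such deviations cancel out, so these values cannot decide whether the numbers pair the samples. With the replicate block 0 members were called in each comparison; miR-212-3p had differences of −1.44 and −1.09 (limma adjusted p = 0.0939 and 0.0628), and 10, 8 and 37 of all miRNAs were called, where 46, 21 and 57 were called without the block, in the order of G93A/G93A and G93A/WT against WT/WT and G93A/G93A against G93A/WT. Over all alternatives these counts ran from 7 to 57, 0 to 130 and 0 to 149.

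The called difference of miR-212-3p between G93A/G93A and G93A/WT turned to 0.048 at its own limit, an alternative chosen after seeing the data. Signs of uncalled differences changed as follows. In G93A/G93A minus G93A/WT, miR-128-3p was −0.25 with own percentiles, −0.59 without scaling and −0.10 with slide row as a block (−0.090 to 0.12 leaving out 1 array). In G93A/WT minus WT/WT, scaling on the median gave −0.066 for miR-128-3p, −0.0022 for miR-132-3p and −0.029 for miR-338-3p; quantile normalization gave −0.10 for miR-132-3p and −0.24 for miR-338-3p; slide row as a block and the fit within row 1 gave −0.048 for miR-338-3p; and no scaling gave 0.35 for miR-212-3p. Leaving out 1 array gave −0.012 to 0.15 for miR-128-3p, −0.15 to 0.36 for miR-132-3p and −0.048 to 0.21 for miR-338-3p. In G93A/G93A minus WT/WT, miR-132-3p was 0.0036 without scaling, and leaving out 1 array gave −0.024 to 0.17 for miR-128-3p, −0.33 to 0.0089 for miR-132-3p and −0.38 to 0.0025 for miR-338-3p. Signals under about 4 times their error limit what can be said of miR-132-3p, miR-338-3p and miR-212-3p.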
